A study of Mus musculus with 12 samples.

Results

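Nuclear-encoded subunits of the mitochondrial respiratory chain were described in CD4 T cells from mouse kidney. The members were 55 genes chosen by symbol from the 52632 genes measured: 28 Nduf genes for complex I, 4 Sdh genes for complex II, 6 Uqc genes and Cyc1 for complex III, Cycs for cytochrome c, 10 Cox genes for complex IV and 5 Atp5 genes for complex V. Complexes were assigned by symbol alone, so Ndufa4 is counted with complex I throughout, although its product is now placed in complex IV. All 55 were found, and all 55 passed the filter of a mean of at least 1 FPKM (fragments scaled to transcript length and library size). RNA was sequenced in 12 libraries, 3 for each of 4 groups. WT control libraries came from C57BL6/J mice, and WT IRI libraries came from mice of that strain after ischemia-reperfusion injury (IRI), in which both renal pedicles were clamped for 30 min and the kidneys taken 24 h later. KO control and KO IRI libraries came from mice labelled CD4 Keap1 KO on the C57BL6/J background, without and with the same injury. The WT mice were purchased and the KO mice were bred in house, so genotype and origin of the animals cannot be told apart. How Keap1 was deleted, whether controls had sham surgery and the age of the mice are not given in the sources used here. Nothing says that the 3 libraries of a group are separate animals, and the p-values then reflect only how far these libraries spread, which may be technical.

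The respiratory chain passes electrons from NADH (complex I) and succinate (complex II) through complex III and cytochrome c to oxygen at complex IV, and complex V, the ATP synthase, uses the proton gradient that complexes I, III and IV build. Most subunits are encoded in the nucleus and imported, and a small set of core subunits of complexes I, III, IV and V is encoded in mitochondrial DNA. Resting T cells depend largely on this chain for ATP, and activated T cells expand it while also raising glycolysis. KEAP1 is the adaptor that marks the transcription factor NRF2 (gene Nfe2l2) for degradation. NRF2 binds antioxidant response elements and is a different protein from nuclear respiratory factor 1 (NRF1), which is known for binding promoters of many respiratory chain genes.

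Sites matching the motifs of these factors were looked for because NRF2 is the partner of the protein deleted in the KO mice and NRF1 is a textbook regulator of respiratory chain genes. RefSeq promoters (build GRCm38.p6, the 250 bases before the start, both strands, 1 promoter a gene) matched 44 of the 55 members, Cox6c not among them. An antioxidant response element, searched as TGACNNNGC (GCNNNGTCA on the opposite strand), lay in 5 of the 44 members' promoters (11.4%) and in 10.1% of all 27025 promoters of the same length. The 5 sites are shown with 9 bases either side, 5′ to 3′ on the gene's strand, with the match in capitals.
Ndufa7 (chr17:33824525-33824551, + strand): agtcggctcTGACCACGCctcactttc
Ndufa9 (chr6:126849155-126849181, - strand): gataccattTGACCCCGCgttgttgcc
Ndufa1 (chrX:37191326-37191352, - strand): gaccgcttcGCGTCGTCAcactccgtg
Ndufv2 (chr17:66101610-66101636, - strand): tcgcgcgccGCTGCGTCAggaacggcg
Atp5o (chr16:91931795-91931821, - strand): caacgatgtTGACGATGCatgtgcaaa

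The core of the NRF1 motif, searched as GCGCNTGCG (CGCANGCGC on the opposite strand), lay in 9 of the 44 (20.5%) and in 5.41% of all promoters. For this and the other motifs, the promoters compared were not matched to the members for expression or base composition. The shares are therefore not shown to be particular to the members. The 9 were Ndufa5, Ndufa8, Ndufa12, Ndufb10, Ndufs6, Sdha, Sdhd, Cycs and Cox6a1. Sdha held 3 separate matches and Ndufa8 held 2. Cox6a1 held 3, but 2 of those overlapped on opposite strands, so its separate sites were 2. Sites are shown in the same way, up to the RefSeq start, for Sdha, Ndufb10 and Cycs. They were chosen since the first 2 stand apart by genotype below as deposited and Cycs does not. After rescaling only Ndufb10 stands apart, and no link between sites and genotype was tested. RefSeq starts can differ from the gene coordinates given below. The Ndufb10 site and the Sdha site nearest to its start lie inside those coordinates, so they may be transcribed.
Sdha, farthest from its start (chr13:74350320-74350346, - strand): tttacagggCGCAGGCGCaccaccact
Sdha, second (chr13:74350277-74350303, - strand): ggcgtgttgCGCAGGCGCagaatcttc
Sdha, nearest to its start (chr13:74350241-74350258, - strand): gactcggtgCGCAAGCGC
Ndufb10 (chr17:24724432-24724458, - strand): tgcccactaCGCAGGCGCagctgtcac
Cycs (chr6:50566613-50566639, - strand): atgctagctCGCATGCGCgcgcacaaa

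The ETS motif CCGGAAG lay in 7 of the 44 (15.9%, against 7.07% of all promoters) and the YY1 motif AAGATGGC in 0 of the 44 (1.58% of all promoters), on both strands. These matches describe letters in a fixed window and are not binding sites. ETS and NRF1 matches were both present in Cox6a1 and Sdhd.

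The labelled cell type was checked against its markers. None of the 12 T cell markers was listed at 0 in any library, and Cd4 lay between 49.7 and 382 FPKM. Keap1 was at 8.50, 9.00 and 9.87 FPKM in WT controls, 8.80, 6.31 and 6.03 after IRI, 6.61, 5.75 and 7.77 in KO controls and 6.28, 5.95 and 4.59 in KO after IRI, so as deposited the groups overlapped and the mean was lower in the libraries labelled KO without being lost (KO minus WT, averaged over condition, -0.34 on the log2(FPKM + 1) scale, limma adjusted p = 0.0945). After the rescaling described next, all 6 KO libraries (log2 levels of 2.38 to 2.88) lay below all 6 WT libraries (2.92 to 3.55), with a difference of -0.62 (adjusted p = 0.0484). Which exons were deleted is not given in the sources used here, so a whole-gene value is a weak check of the label. Libraries differed in overall scale: the FPKM of a library summed to between 739969 and 2089551, and the factors that bring the median gene to a common level lay between 0.755 (WT IRI 3) and 1.34 (KO control 1). The median of all 19288 genes tested was 0.292 higher in KO than in WT on the log2(FPKM + 1) scale. Genotype differences below are therefore followed by their value after rescaling each library by that factor, and levels are as deposited. KO control 1 also stood apart in other genes: Malat1, at 2271 to 5201 FPKM elsewhere, was listed at 0 there. The summed FPKM of 8 B cell markers was highest in the 3 KO controls, at 1706, 336.9 and 463.7, against 40.4 to 218 in the other 9 libraries.

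The members were among the more abundant transcripts of these cells. Of the 55, 53 had a mean FPKM over the 12 libraries above the median of the 12065 protein-coding genes tested (9.03 FPKM), and 14 lay above the 90th percentile of those genes (44.6 FPKM). The order of levels followed no single complex. Atp5b, the catalytic beta subunit of the ATP synthase (chr10:128083273-128090391), had the highest mean at 135 FPKM, and Atp5a1, the alpha subunit, followed at 109 FPKM. The flavoprotein of complex II, Sdha (chr13:74322254-74350280), came next at 94.0 FPKM. The other Sdh genes were far lower: the iron-sulfur subunit Sdhb averaged 18.2 FPKM, and the membrane anchors Sdhd and Sdhc averaged 20.2 and 17.4 FPKM. In each of the 12 libraries Sdha lay between 60.9 and 135 FPKM and Sdhb between 7.90 and 32.2 FPKM, so those ranges did not overlap.

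Complex IV members had a median of 45.9 FPKM, from Cox5a at 20.2 to Cox4i1 at 78.3. Complex III members had a median of 29.4 FPKM, from Uqcrb at 14.5 to the hinge protein gene Uqcrh at 62.2. Complex I had the lowest median of the 5 complexes but for complex II (19.2 FPKM), at 21.8 FPKM, from the accessory subunit Ndufb3 at 7.92 to the iron-sulfur core subunit Ndufs7 at 44.8. Cycs, the electron carrier between complexes III and IV, was low among the members at 10.4 FPKM. The highest and lowest members of complexes I and III lay far apart in every library. Ndufs7 was at 37.8, 33.2 and 28.7 FPKM in WT controls, 43.6, 37.4 and 28.3 in WT after IRI, 52.9, 34.1 and 56.4 in KO controls and 59.9, 48.9 and 76.2 in KO after IRI, and Ndufb3 at 9.62, 9.37 and 4.76, 5.70, 5.10 and 5.58, 14.3, 9.14 and 10.9, and 5.86, 7.16 and 7.61 FPKM in the same order. The lowest of Ndufs7 was above the highest of Ndufb3. Uqcrh was at 41.3, 49.1 and 70.0 FPKM in WT controls, 53.6, 43.5 and 44.1 in WT after IRI, 107, 56.7 and 83.4 in KO controls and 61.6, 65.8 and 70.9 in KO after IRI, and Uqcrb at 16.7, 15.2 and 12.3, 8.27, 10.9 and 10.9, 20.8, 11.4 and 20.5, and 12.5, 16.5 and 18.1 FPKM in that order. The same held for this pair. Sdhc was at 15.2, 14.2 and 17.3 FPKM in WT controls, 15.7, 9.35 and 19.2 in WT after IRI, 21.6, 16.4 and 29.2 in KO controls and 17.6, 19.8 and 13.6 in KO after IRI, within the range of Sdhb and Sdhd, so the order of those 3 is not settled by their spread. Reads of Cycs can be shared with near-identical copies elsewhere in the genome, so its level is less certain. The tissue-restricted isoforms Cox4i2, Cox6a2, Cox6b2, Cox7a1, Cox8b, Cox8c and Ndufa4l2, which replace ubiquitous subunits in muscle, lung or testis or under low oxygen, were at 3.01 FPKM or less in every library.

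The balance between complexes moved little from library to library. Complex I held between 31.8% and 35.2% of the members' summed FPKM, complex III between 11.9% and 14.1%, complex IV between 21.8% and 27.5% and complex V between 18.1% and 21.6%. Complex II varied more, between 5.90% in KO control 1 and 9.35% in KO IRI 1. Cytochrome c held 0.398% to 0.791%. The sum itself varied by a larger factor than any of these shares. Summed over the 55 members it was 1619, 1594 and 1882 FPKM in WT controls and 1594, 1390 and 1143 in WT after IRI. In KO it was 3030, 1828 and 2664 FPKM in controls and 1998, 1989 and 2761 after IRI. All KO sums but that of KO control 2 thus lay above every WT sum, and KO control 2 lay above all WT sums except the 1882 of WT control 3.

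**Figure D1:**
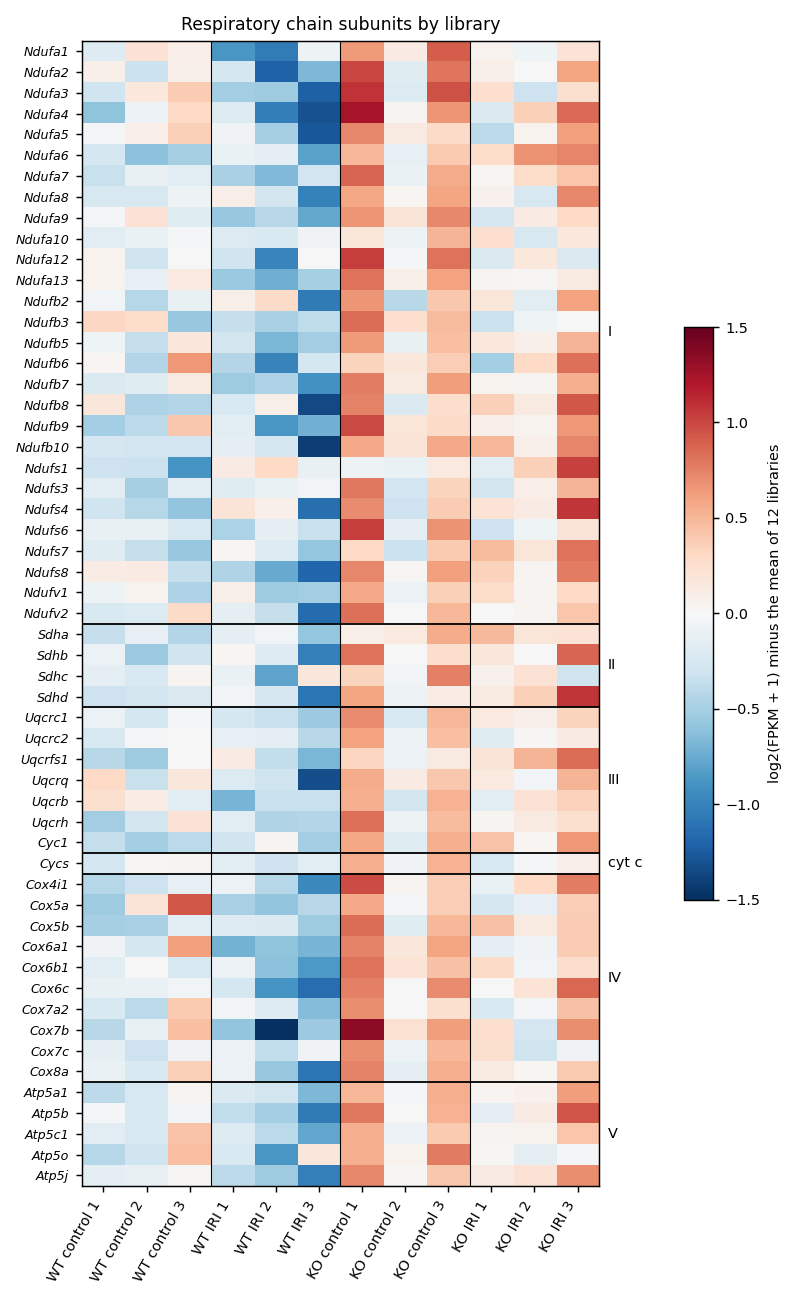
Level of each of the 55 members (rows, by complex) in each of the 12 libraries (columns), as log2(FPKM + 1) as deposited minus that gene's mean over the 12 libraries, with colour from -1.5 to 1.5. KO control 1 is the highest library for 32 members and WT IRI 3 the lowest for 31, and the contrast between columns runs across all complexes.

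Single libraries set much of this pattern. As deposited, KO control 1 was the highest library for 32 of the 55 members and KO IRI 3 for 16, and WT IRI 3 was the lowest for 31 and WT IRI 2 for 15. After rescaling, KO IRI 3 was the highest for 22 and KO control 1 for 15, and WT IRI 3 was the lowest for 18 and WT IRI 2 for 17. Markers of kidney tubule cells, which are rich in mitochondria, differed between these libraries. The summed FPKM of 12 proximal tubule markers was 274 in KO IRI 3 and 159 in KO control 2, and between 6.07 and 66.2 in the other 10. Most of those 2 sums was a single gene, Kap, at 240 and 129 FPKM. The mean log2(FPKM + 1) of the 12 markers was 2.05 in both libraries, and 1.73 in WT control 3. Not every marker followed: Slc5a2 was at 0.292 and 0.294 FPKM in those libraries and at 2.85 in KO IRI 1. In KO control 1, where the members were highest, the summed FPKM was 9.43. There 5 of the 12 were listed at 0, the phosphate transporter Slc34a1 among them. For 8 markers of the loop and distal tubule it was 278 in KO IRI 3 and 3.04 to 80.9 elsewhere. The part of these cells in the members' levels in KO IRI 3 was not tested. In bulk RNA of this kind, fewer cells of a type and less RNA per cell cannot be told apart.

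The genotypes were compared first, averaged over control and injury. As deposited, the mean of all 55 members was higher in KO, and 22 of 55 (40.0%) rose at a limma adjusted p under 0.05, where 11.9% of all 19288 genes tested rose (2123 of the 12065 protein-coding genes). None fell. The 22 comprised 11 of 28 members listed under complex I (Ndufa4 among them), 1 of 4 of complex II and 2 of 7 of complex III. They also held 5 of 10 of complex IV and 3 of 5 of complex V, and Cycs did not pass. The median difference was 0.58 over the members, 0.29 over all genes and 0.37 over protein-coding genes. The members are higher than many genes tested, and log2(FPKM + 1) shrinks the differences of low genes. Over the 10227 genes averaging at least 5 FPKM, a filter that all 55 members pass, the median was 0.423. In that fit 34.2% of genes were called in either direction, and 31 of 55 members passed. After rescaling, 0 of 55 passed, where 0.378% of all genes rose, although 52 of 55 members were still higher in KO. The rescaled median was 0.27 for the members and 0.04 for all genes (0.09 for protein-coding genes), and the smallest adjusted p was 0.0708, for Ndufa6. The 22 calls also depended on single libraries, as did the calls over all genes. Without any 1 of WT control 1, WT control 2, KO control 1, KO control 3, KO IRI 1 or KO IRI 3, 0 members passed. In those fits 0.205% to 1.5% of all genes were called in either direction. Between 2 and 16 members passed without any 1 of WT control 3, the 3 WT IRI libraries or KO IRI 2 (2.03% to 8.92% of all genes), and 43 without KO control 2. Leaving out KO control 2 also brought the share of all genes called in either direction to 30.4%, from 13.7% with all 12 libraries, and on rescaled values 1 member passed without it (6.54% of all genes).

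**Figure D2:**
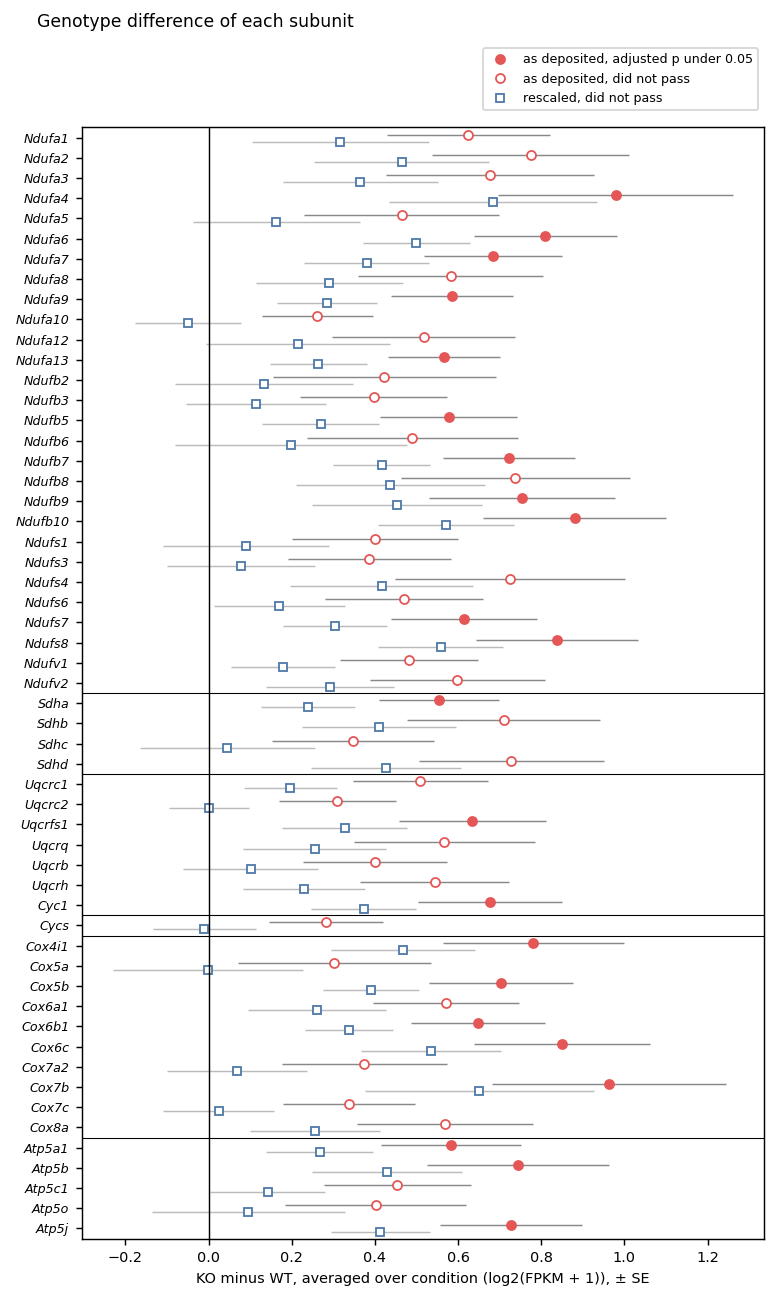
KO minus WT, averaged over condition, for each of the 55 members on the log2(FPKM + 1) scale, with bars of 1 standard error. Circles are values as deposited, filled for the 22 with a limma adjusted p under 0.05, and squares are rescaled values, of which none passed and 3, Ndufa10, Cycs and Cox5a, lie below 0.

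Within complex I, the smallest adjusted p belonged to Ndufa6, an accessory subunit of the LYR family (ENSMUSG00000022450.5, chr15:82350140-82354322). It was at 30.8, 23.9 and 26.1 FPKM in WT controls, 34.6, 33.6 and 20.9 in WT after IRI, 52.8, 34.0 and 49.0 in KO controls and 45.5, 59.8 and 62.3 in KO after IRI. The lowest KO library, KO control 2, lay just under the highest WT library, so the genotypes overlapped by 1 library. The difference was 0.81 ± 0.172 (SE, limma adjusted p = 0.0284) and lost the call after rescaling (adjusted p = 0.0708). Ndufb7, an accessory subunit of the membrane arm (chr8:83566671-83571626), was at 19.98, 20.5 and 25.8 FPKM in WT controls, 15.8, 16.7 and 12.0 in WT after IRI, 40.4, 25.8 and 36.6 in KO controls and 24.2, 24.1 and 34.4 in KO after IRI. After IRI the KO libraries lay above all WT ones, and in controls KO control 2 and WT control 3 met (0.72, adjusted p = 0.0296, rescaled 0.42). Ndufs8, an iron-sulfur core subunit that lies near the quinone site (chr19:3908863-3912774), was at 8.57, 8.70 and 5.96 FPKM in WT controls, 5.51, 4.26 and 2.89 in WT after IRI, 13.7, 7.99 and 12.6 in KO controls and 10.3, 8.15 and 14.2 in KO after IRI. Its genotypes overlapped through KO control 2 and KO IRI 2, and its averaged difference was 0.84 (adjusted p = 0.0328, rescaled 0.56).

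Only 4 of the 55 members had all 6 KO libraries above all 6 WT libraries as deposited (3.74% of all genes did so in this direction), namely Ndufa7, Ndufb10, Sdha and Cox6c. After rescaling the only one was Ndufb10 (0.778% of all genes). Ndufb10, an accessory subunit of the membrane arm facing the intermembrane space (ENSMUSG00000040048.14, chr17:24722060-24724478), was at 29.5, 28.9 and 28.7 FPKM in WT controls (mean 29.0 ± 0.386 SD, n = 3), 32.2, 29.3 and 12.7 in WT after IRI, 53.1, 40.6 and 53.0 in KO controls (48.9 ± 7.16) and 50.3, 37.2 and 59.5 in KO after IRI. WT IRI 3 was the lowest library by far, and the gap between the lowest KO and the highest WT library was wider than the SD of the WT controls and narrower than those of the other groups. Its difference was 0.88 ± 0.22 (limma adjusted p = 0.0355), and 0.57 with an adjusted p of 0.0925 after rescaling. Ndufa7, an accessory subunit of the matrix arm (chr17:33824572-33838317), was at 16.5, 19.5 and 18.6 FPKM in WT controls, 14.8, 13.0 and 17.0 in WT after IRI, 39.6, 19.7 and 31.4 in KO controls and 21.5, 25.8 and 28.4 in KO after IRI. Here KO control 2 cleared WT control 2 by a margin smaller than the SD of any group (0.69, adjusted p = 0.0346, rescaled 0.38 with 0.186).

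Sdha was the 1 complex II member that rose. It was at 71.5, 83.8 and 67.3 FPKM in WT controls, 83.5, 88.7 and 60.9 in WT after IRI, 97.3, 101 and 135 in KO controls and 129, 104 and 105 in KO after IRI (0.55 ± 0.145, limma adjusted p = 0.038, rescaled 0.24 with 0.255). Unlike in most members, KO control 1 was the lowest KO library, and the 2 highest values were in KO control 3 and KO IRI 1. Sdhb was at 16.0, 11.4 and 13.7 FPKM in WT controls, 17.4, 14.8 and 7.90 in WT after IRI, 30.8, 17.1 and 20.7 in KO controls and 19.4, 17.2 and 32.2 in KO after IRI (0.71, adjusted p = 0.0616, rescaled 0.41). The fitted difference of Sdhb was larger than that of Sdha, but its libraries spread more and it did not pass.

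In complex III, Cyc1, the cytochrome c1 subunit (chr15:76343523-76346260), and Uqcrfs1, the Rieske iron-sulfur protein, rose by 0.68 and 0.63 (adjusted p = 0.0367 and 0.0435, rescaled 0.37 and 0.33). Cyc1 was at 14.1, 12.5 and 13.6 FPKM in WT controls, 14.7, 18.8 and 12.6 in WT after IRI, 27.7, 15.9 and 27.0 in KO controls and 24.9, 18.7 and 29.2 in KO after IRI. Uqcrfs1 was at 20.8, 19.1 and 27.9 FPKM in WT controls, 30.6, 21.4 and 17.1 in WT after IRI, 35.3, 26.3 and 30.9 in KO controls and 32.2, 40.5 and 51.1 in KO after IRI. KO control 2 lay within the WT range for both, and KO IRI 2 for Cyc1. They are the electron-carrying subunits of the list, while the core proteins Uqcrc1 and Uqcrc2 and the small subunits Uqcrb, Uqcrh and Uqcrq did not pass (0.31 to 0.57, rescaled 0.002 to 0.255). Those 2 sets of subunits were not tested against each other, and no member of complex III passed after rescaling. Cycs was at 8.27, 10.3 and 10.5 FPKM in WT controls, 8.88, 7.99 and 9.04 in WT after IRI, 15.2, 9.75 and 15.1 in KO controls and 8.46, 9.93 and 10.98 in KO after IRI. Only 2 KO controls stood clear of the other libraries, its averaged difference was 0.28 (adjusted p = 0.158), and rescaling brought that to -0.01.

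In complex IV, Cox5b, Cox6b1, Cox6c, Cox4i1 and Cox7b rose, by 0.65 to 0.96 (rescaled 0.34 to 0.65). Cox6c, a small membrane subunit (ENSMUSG00000014313.14, chr15:35925886-35938246), was at 66.7, 67.7 and 70.3 FPKM in WT controls, 59.9, 38.6 and 32.3 in WT after IRI, 123, 72.7 and 119 in KO controls and 72.6, 83.5 and 133 in KO after IRI (0.85 ± 0.211, adjusted p = 0.0349, rescaled 0.54 with 0.114). KO control 2 and KO IRI 1 lay only a little above the highest WT library. Cox4i1, a regulatory subunit (chr8:120668222-120674207), was at 54.2, 58.7 and 67.3 FPKM in WT controls, 68.9, 54.1 and 37.1 in WT after IRI, 145, 75.3 and 94.8 in KO controls and 68.2, 90.5 and 126 in KO after IRI (0.78, adjusted p = 0.0435, rescaled 0.47). Cox5b, a zinc-binding matrix-side subunit, was at 30.3, 30.4 and 38.1 FPKM in WT controls, 37.4, 36.9 and 29.4 in WT after IRI, 77.8, 37.8 and 61.1 in KO controls and 59.0, 47.3 and 56.6 in KO after IRI (0.70, adjusted p = 0.0349, rescaled 0.39). For both genes KO control 1 was the highest library and the genotypes overlapped. Cox6b1, which lies on the intermembrane space side, was at 34.9, 39.5 and 33.1 FPKM in WT controls, 36.8, 25.3 and 21.1 in WT after IRI, 69.4, 45.3 and 53.3 in KO controls and 47.9, 38.0 and 47.3 in KO after IRI (0.65, adjusted p = 0.0349, rescaled 0.34). Its overlap was that of KO IRI 2 with WT control 2. Cox5a was the exception in this complex, with a difference of 0.30 (adjusted p = 0.357, rescaled -0.001): its highest value of all, 37.4 FPKM, was in WT control 3, against 12.9 and 22.0 in the other WT controls, 13.3, 12.4 and 14.1 in WT after IRI, 28.7, 18.8 and 25.1 in KO controls and 15.9, 17.4 and 25.1 in KO after IRI.

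In complex V, Atp5j, the coupling factor 6 subunit (chr16:84827866-84835625), Atp5a1 and Atp5b rose, by 0.73, 0.58 and 0.75 (adjusted p = 0.0328, 0.046 and 0.048, rescaled 0.41, 0.27 and 0.43). Atp5b was at 123, 108 and 122 FPKM in WT controls, 97.5, 88.7 and 59.9 in WT after IRI, 218, 126 and 181 in KO controls and 114, 137 and 244 in KO after IRI. Its highest and lowest libraries, KO IRI 3 and WT IRI 3, were both injured ones. Atp5j was at 60.3, 62.0 and 67.8 FPKM in WT controls, 50.5, 45.9 and 32.4 in WT after IRI, 111, 67.4 and 88.5 in KO controls and 72.9, 78.1 and 109 in KO after IRI. Atp5a1 was at 79.5, 88.9 and 109 FPKM in WT controls, 90.4, 86.7 and 65.8 in WT after IRI, 149, 104 and 153 in KO controls and 108, 110 and 162 in KO after IRI. KO control 2 lay within the WT range for both, and KO IRI 1 for Atp5a1. Atp5o, which joins the peripheral stalk to the catalytic head, was at 16.1, 17.8 and 30.5 FPKM in WT controls, 18.8, 11.6 and 24.97 in WT after IRI, 32.3, 23.0 and 38.7 in KO controls and 22.4, 19.8 and 21.6 in KO after IRI (0.40, adjusted p = 0.198, rescaled 0.10). Of the 5 members whose promoter held an antioxidant response element, Ndufa7 and Ndufa9 rose as deposited, which is the same share as the 40.0% of all members (11.9% of all genes), and Ndufa1 (0.63, adjusted p = 0.0553, rescaled 0.32), Ndufv2 (0.60, adjusted p = 0.0733, rescaled 0.29) and Atp5o did not pass. After rescaling none of the 5 passed.

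**Figure D3:**
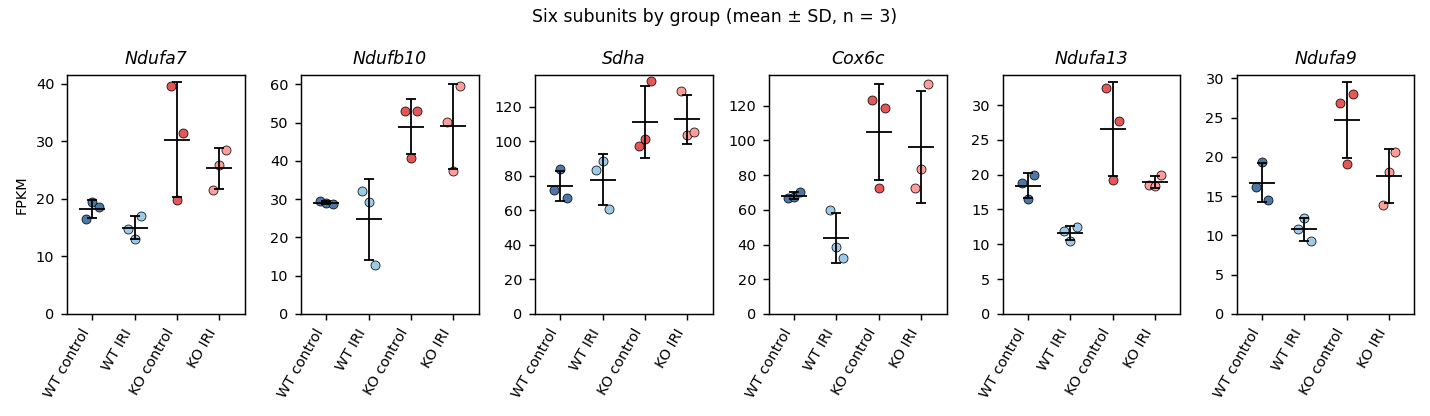
FPKM as deposited in each library (points), with group mean and SD (bars, n = 3), of the 4 members whose 6 KO libraries all exceed all 6 WT libraries (Ndufa7, Ndufb10, Sdha, Cox6c) and of the 2 members that fell after IRI (Ndufa13, Ndufa9). The margin of Ndufa7 rests on KO control 2 at 19.7 FPKM against WT control 2 at 19.5, and both WT and KO means of Ndufa13 and Ndufa9 are lower after IRI.

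Other gene groups moved with the members in this comparison. All 12 T cell markers rose in KO as deposited, and 3 of 12 after rescaling. Their summed FPKM was 1649 to 1819 in WT controls, 879 to 1060 in WT after IRI, 2107 to 3144 in KO controls and 1722 to 2218 in KO after IRI, the same order of group means as for the members, and their part in the members' difference was not tested. Markers of other cell types differed by genotype too. For B cells 2 of 8 markers rose as deposited and 0 after rescaling, and the summed FPKM of all 8 averaged 836 in KO controls against 156 in WT controls, and 113 against 51.9 after IRI. For macrophages and monocytes none of 10 passed, and the sum averaged 247.5 in KO controls against 118 in WT controls, and 143 against 125 after IRI. Their part in the members' difference was not tested either. The counts that follow stand against 11.9% of all genes that rose and a median of 0.29 over all genes (0.04 rescaled). Over genes averaging at least 5 FPKM that median was 0.423. Of 80 cytosolic ribosomal protein genes 16 rose (20%), with a median of 0.52 (0.21 rescaled), and of 75 mitochondrial ribosomal protein genes 15 rose (20%) and 1 fell, with a median of 0.46 (0.16 rescaled). The tricarboxylic acid cycle, which supplies the chain with NADH and succinate, had 5 of 16 genes past the threshold (31.2%), led by the citrate synthase gene Cs (0.79, adjusted p = 0.0273, rescaled 0.48), with a median of 0.38 (0.08 rescaled). A further 22 nuclear subunits outside the 55 had 6 that rose (27.3%, median 0.57, rescaled 0.27), the smallest adjusted p being 0.0314 for both Ndufb11 and Ndufv3 (rescaled differences 0.41 and 0.41). Factors that assemble the complexes had 8 of 43 that rose (18.6%, median 0.44, rescaled 0.18), among them the copper chaperone Cox17 (1.00, adjusted p = 0.0334, rescaled 0.70). The 13 subunits encoded in mitochondrial DNA had none past the threshold (smallest adjusted p = 0.127), though 13 of 13 were higher in KO, with a median of 0.52, and after rescaling 10 of 13 were, with a median of 0.20. Of 12 regulators of mitochondrial gene expression tested, the mitochondrial RNA polymerase gene Polrmt alone passed (0.71, adjusted p = 0.0458, rescaled 0.42), which is 8.33% of them and under the share of all genes. After rescaling none of these lists other than the T cell markers kept a gene that rose.

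Within controls alone, all 55 members were higher in KO as deposited, with a median of 0.52 (0.30 over all genes, 0.415 over genes averaging at least 5 FPKM), and none passed (0.0259% of all genes did, 5 genes). The smallest adjusted p was 0.194, for Cox5b. In 13 of 55 all 3 KO controls exceeded all 3 WT controls, where 20.1% of all genes did, and after rescaling 5 did (7.91% of all genes). The rescaled median was 0.20, with 48 members higher and 7 lower.

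After IRI, all 55 members were again higher in KO as deposited, with a median of 0.69 (0.26 over all genes, 0.419 over genes averaging at least 5 FPKM), and none passed (0.0518% of all genes rose, 10 genes). The smallest adjusted p was 0.0952, for Ndufs8 (1.19 ± 0.276, rescaled 0.93). Cox6c followed in complex IV with 1.12 (adjusted p = 0.107, rescaled 0.83), and in complex II Sdhd, a membrane anchor, had 0.98 (adjusted p = 0.135, rescaled 0.70). Sdhd was at 18.4, 15.8 and 8.32 FPKM in WT after IRI and at 20.8, 24.4 and 40.7 in KO after IRI, against 15.02, 15.4 and 16.2 in WT controls and 29.1, 17.9 and 20.5 in KO controls. Its injured groups did not overlap as deposited and did after rescaling, and its highest and lowest libraries were KO IRI 3 and WT IRI 3. Over the members, 34 of 55 had all 3 injured KO libraries above all 3 injured WT libraries, where 24.9% of all genes did, and 16 of 55 after rescaling (11.8% of all genes). The rescaled median was 0.42, with 47 members higher and 8 lower, and the rescaled smallest adjusted p was 0.131. The comparisons within controls and after IRI together make up the averaged one and use the same libraries, so they are no further support for it.

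**Figure D4:**
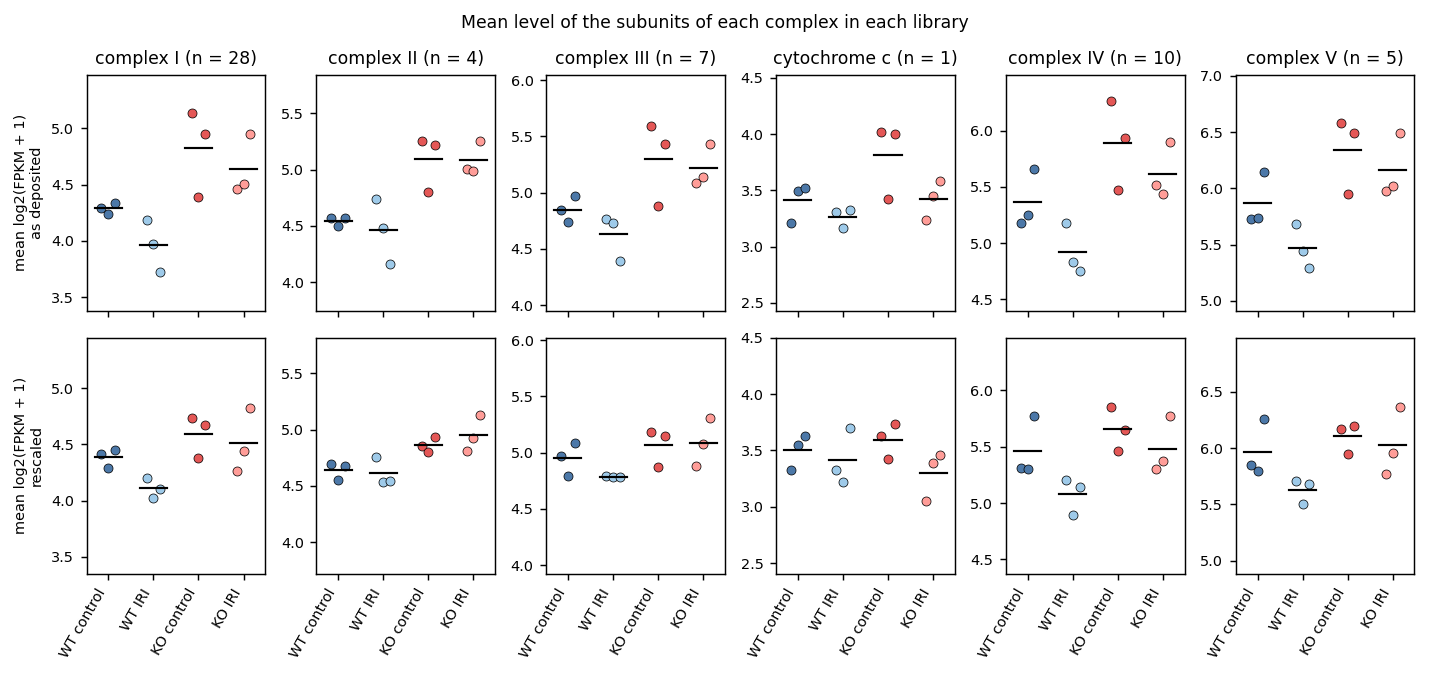
Mean log2(FPKM + 1) over the members of each complex in each library (points; lines are group means, n = 3), as deposited (top) and rescaled (bottom). Group means are higher in KO than in WT in every panel but that of cytochrome c, where the rescaled mean after IRI is lower in KO, and the 3 KO control points spread widely as deposited and less after rescaling.

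Injury was compared next, averaged over genotype. The means of 45 of 55 members were lower after IRI and those of 10 were higher. Of the members 2 fell at a limma adjusted p under 0.05, which is 3.64% of them, where 6.03% of all genes fell, and none rose. The share that fell was thus near or under the background, while the median difference was -0.27 for the members and 0.00 for all genes (-0.19 and 0.06 after rescaling, with 42 members lower and again 2 past the threshold, where 7.33% of all genes fell). Over genes averaging at least 5 FPKM the median as deposited was -0.0701. As deposited, 0 members passed without any 1 of WT control 1, WT IRI 1, WT IRI 2, KO control 1, KO control 3, KO IRI 2 or KO IRI 3. In those fits 5.42% to 6.45% of all genes were called in either direction. Without KO control 2, 8 of 55 passed, where 13.2% of all genes were called. The 1 or 2 called without any 1 of the other libraries were Cox6a1 without WT control 2, Ndufb3 without WT control 3, Ndufa1 and Ndufa13 without WT IRI 3, and Ndufs1, which was higher after IRI, without KO IRI 1. There 6.18% to 9.74% of all genes were called in either direction. So as deposited Ndufa13 kept its call without WT IRI 3 or KO control 2 and Ndufa9 only without KO control 2, and neither passed without any 1 of the remaining libraries.

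Both members that fell were accessory subunits of complex I. Ndufa13, also known as GRIM-19 (ENSMUSG00000036199.9, chr8:69894180-69902558), was at 18.8, 16.5 and 20 FPKM in WT controls (18.4 ± 1.77 SD, n = 3) and 12.0, 10.4 and 12.5 in WT after IRI (11.6 ± 1.06). In KO it was at 32.5, 19.2 and 27.8 FPKM in controls and 18.5, 18.3 and 19.9 after IRI. The WT groups did not overlap, and the KO groups overlapped because KO control 2 lay under KO IRI 3. The averaged difference was -0.53 ± 0.135 (adjusted p = 0.0348, rescaled -0.45 with 0.0298). Ndufa9, which sits where the matrix and membrane arms meet (chr6:126821721-126849136), was at 16.2, 19.4 and 14.5 FPKM in WT controls and 10.8, 12.2 and 9.31 in WT after IRI. In KO it was at 26.8, 19.1 and 28.0 FPKM in controls and 13.8, 18.1 and 20.7 after IRI (-0.53 ± 0.147, adjusted p = 0.0497, rescaled -0.45 with 0.0338). Its groups stood to each other as those of Ndufa13 did, and after rescaling the KO groups did not overlap for either gene. Both genes were also among the 22 higher in KO as deposited, so WT after IRI was the lowest of the 4 groups and KO controls the highest.

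Other members lay near the threshold. Cox6a1, a complex IV subunit, differed by -0.61 (adjusted p = 0.0582), with 34.1, 29.4 and 54.9 FPKM in WT controls, 21.2, 22.9 and 21.5 in WT after IRI, 60.0, 40.1 and 54.1 in KO controls and 32.3, 34.0 and 46.6 in KO after IRI. Ndufb3 differed by -0.53 (adjusted p = 0.0919), and its 3 injured KO libraries (5.86, 7.16 and 7.61 FPKM) lay below its 3 KO controls (14.3, 9.14 and 10.9). Ndufs1, the largest iron-sulfur subunit of complex I (chr1:63143596-63176833), went the other way at 0.52 (adjusted p = 0.143). It was at 29.3, 29.0 and 19.3 FPKM in WT controls, 40.1, 45.3 and 33.9 in WT after IRI, 34.6, 34.0 and 40.6 in KO controls and 32.8, 47.3 and 75.7 in KO after IRI, so that the WT groups did not overlap and the KO groups did. Within complex I, the 6 members that are core subunits (Ndufs1, Ndufs3, Ndufs7, Ndufs8, Ndufv1 and Ndufv2) were split, 3 higher and 3 lower with a median of -0.06. Of the 22 other Nduf members, taken as accessory and with Ndufa4 among them, 20 were lower, with a median of -0.37. That grouping was chosen after the values were seen and has no test. Ndufv1, which holds the NADH-binding flavin, was at 18.2, 20.1 and 13.7 FPKM in WT controls, 20.6, 13.0 and 13.2 in WT after IRI, 29.0, 18.2 and 24.9 in KO controls and 23.5, 19.9 and 24.0 in KO after IRI, with a difference of -0.12 (adjusted p = 0.705). In complex III the smallest p belonged to Uqcrq, a small membrane subunit, at 66.6, 42.5 and 60.5 FPKM in WT controls, 46.4, 43.5 and 20.7 in WT after IRI, 79.3, 58.5 and 71.7 in KO controls and 59.7, 52.3 and 77.2 in KO after IRI, with overlap in both genotypes.

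By complex, the averaged medians were -0.35 in complex I, 0.00 in complex II, -0.21 in complex III, -0.37 in complex IV and -0.30 in complex V, and Cycs had -0.27 (adjusted p = 0.265). Complex II was the one complex with as many members higher as lower, 2 of each. Sdha differed by 0.04 (adjusted p = 0.898) and Sdhb by -0.05 (adjusted p = 0.932).

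Within WT, 46 members were lower and 9 higher after IRI, with a median of -0.27 (0.00 over all genes), and none passed (3.78% of all genes did in either direction). The smallest adjusted p was 0.108, for Ndufa13 (-0.62 ± 0.191). In 12 of 55 all injured WT libraries lay below all WT controls, where 14.4% of all genes did, and Ndufs1 was the 1 member with the reverse (9.28% of all genes). Within KO, 46 members were lower and 9 higher, with a median of -0.17 (-0.02 over all genes), and none passed (0.866% of all genes did). The smallest adjusted p was 0.275, for Ndufb3, and in 2 members, Ndufb3 and Atp5o, all injured libraries lay below all controls (9.15% of all genes). After rescaling the members whose injured libraries lay below all controls were 10 in WT (13.6% of all genes) and 6 in KO (10.6% of all genes), the latter with Ndufa1, Ndufa9, Ndufa13 and Cox6b1 added, and Ndufs7 and Uqcrfs1 had the reverse in KO (12% of all genes). The members with the smallest p in the other complexes overlapped. In KO, Uqcrc2 was at 43.5, 26.5 and 38.9 FPKM in controls and 24.8, 28.6 and 30.7 after IRI, and Cox7c was at 74.3, 42.7 and 64.5 FPKM in controls and 53.9, 36.8 and 43.7 after IRI. KO control 2 was the lowest control for both. After rescaling, the KO median was -0.07 with 36 members lower and 19 higher.

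**Figure D5:**
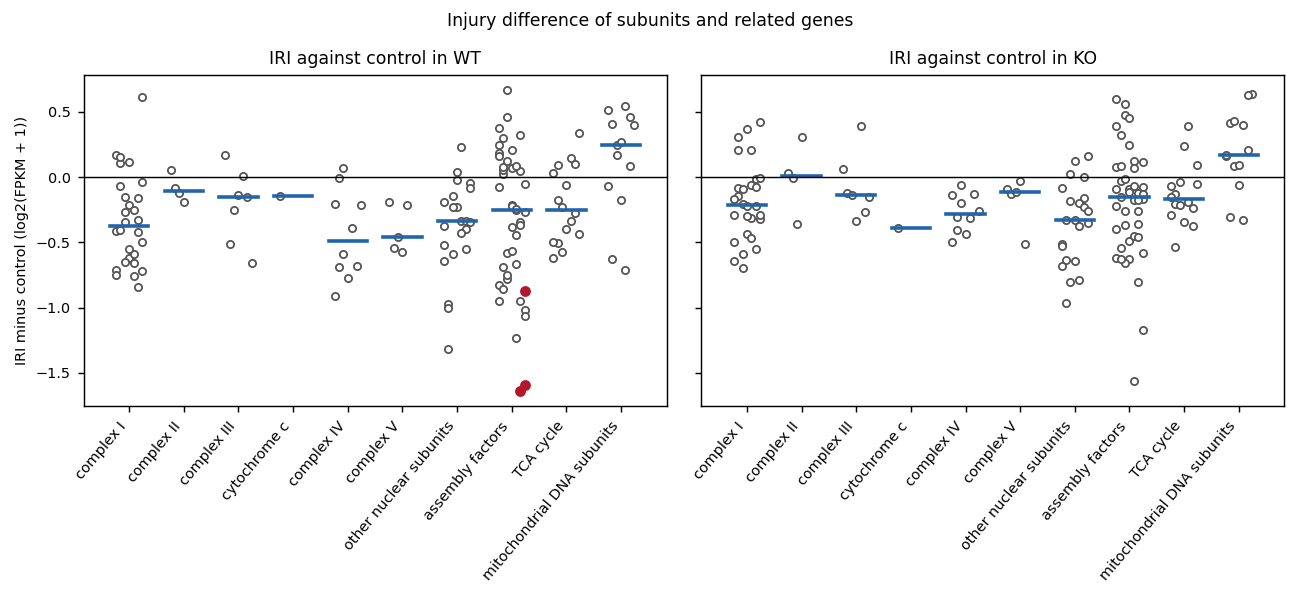
IRI minus control on the log2(FPKM + 1) scale, as deposited, in WT (left) and KO (right), for each member by complex and for 4 related gene lists; blue lines are list medians and filled red points are genes with a limma adjusted p under 0.05. The medians of the complexes lie between -0.49 and 0.01, those of the 13 mitochondrial DNA subunits at 0.25 and 0.17, and the only filled points are the assembly factors Cox16, Ndufaf1 and Uqcc2 in WT.

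Markers of several cell types moved with injury as well. Of the 12 T cell markers, 6 fell and 1 rose in the averaged comparison (7 and 1 after rescaling), where 6.03% of all genes fell and 3.01% rose, and their summed FPKM after IRI lay below that of every control library in WT (879 to 1060 against 1649 to 1819). In KO the ranges overlapped (1722 to 2218 against 2107 to 3144). Of 8 markers of CD8 T and NK cells 6 fell, and their summed FPKM averaged 128 in WT controls against 42.1 after IRI and 99.5 in KO controls against 25.7. Of 8 B cell markers 5 fell, with averages of 156 against 51.9 in WT and 836 against 113 in KO. Of the 5 neutrophil markers tested 4 rose, and the sum over all 8 averaged 4.73 against 31.4 in WT and 3.59 against 17.2 in KO, where KO IRI 3 at 3.86 lay within the range of the KO controls. Of 10 macrophage and monocyte markers 2 fell and 1 rose. The counts for CD8 T and NK cells, B cells and neutrophils were the same after rescaling. Their part in the members' difference was not tested.

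Among genes that build the complexes, 4 of 43 assembly factors fell in the averaged comparison (9.3%, where 6.03% of all genes and 8.63% of protein-coding genes fell, so the count is near the background), 3 of them by more than any of the 55 members (at most 0.70, for Cox7b, adjusted p = 0.159). Coa3, which acts early in complex IV assembly, was at 6.16, 5.52 and 6.93 FPKM in WT controls, 3.06, 2.09 and 1.26 in WT after IRI, 22.0, 8.71 and 11.4 in KO controls and 5.15, 3.84 and 2.64 in KO after IRI (-1.40, adjusted p = 0.005). Injured libraries lay below the controls of their genotype without overlap. Cox16, another complex IV factor, fell by 1.22 on the log2 scale (adjusted p = 0.0079), the complex III factor Uqcc2 by 1.38 (adjusted p = 0.011) and the complex I factor Ndufaf1 by 0.52 (adjusted p = 0.0361). The list's median was -0.24, close to that of the members. Among the 22 further nuclear subunits Atp5e, the epsilon subunit of complex V, fell (-0.80, adjusted p = 0.0222), with a list median of -0.37. None of the 16 tricarboxylic acid cycle genes passed (median -0.26). Among regulators Gabpb1, a subunit of the ETS factor GABP (also called NRF-2, and not the NRF2 of KEAP1), rose by 0.81 (adjusted p = 0.0227), and Tfb1m, a mitochondrial ribosomal RNA methyltransferase, fell by 1.02 (adjusted p = 0.0414) but did not pass after rescaling. Tfb1m was near the filter, at 2.64, 1.08 and 3.59 FPKM in WT controls and 0.220, 0.664 and 1.37 in WT after IRI, which overlapped. In KO it was at 1.43, 2.07 and 3.38 FPKM in controls and 0.719, 0.193 and 0.647 after IRI.

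For the 13 subunits encoded in mitochondrial DNA the median difference had the opposite sign to that of the nuclear members. Of the 13, 10 were higher after IRI, with a median of 0.17 (0.25 after rescaling), and none passed. mt-Co1, the catalytic subunit of complex IV, was at 1955, 1716 and 1962 FPKM in WT controls, 2719, 2793 and 1456 in WT after IRI, 3085, 2140 and 3014 in KO controls and 3279, 2483 and 2921 in KO after IRI (0.17, adjusted p = 0.694). WT IRI 3 was again the lowest library, and the summed FPKM of the 13 was lowest there too, at 15140. Genes of mitochondrial DNA lie end to end or overlap, and mt-Co2, mt-Co3, mt-Nd3, mt-Nd4l and mt-Atp6 read orders of magnitude below their neighbours, so their levels are uncertain. High levels are uncertain too: mt-Atp8 was at 6143 to 19220 FPKM, and mt-Atp6, which overlaps it, at 29.9 to 81.6. The count of 10 includes genes of this kind. Of cytosolic ribosomal protein genes 78 of 80 were lower after IRI (median -0.27, 1 past the threshold), close to the median of the members.

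Whether injury acted differently in the 2 genotypes was tested as an interaction. None of the 55 members passed (1 of 19288 genes did, 0.00518%), none had an unadjusted p under 0.05, and the smallest adjusted p was 0.999. The median interaction was 0.19. The counts of members whose injured libraries all lay below the controls, 12 in WT and 2 in KO as deposited and 10 and 6 after rescaling, are therefore not a tested difference between genotypes.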

How the data were processed

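Per the labels' protocols, CD4 T cells were enriched on Percoll and flow sorted from kidneys, 1 ng of total RNA entered a stranded pico input kit and 36 bp paired reads were made. The authors deposited 1 table of FPKM, 1 value per gene and library. Build GRCm38 and, with no role given, Cufflinks 2.2.1, TopHat2 2.1.0, Partek 7.0 and bcl2fastq 2.17.1.14 are listed per the submitters' processing notes, and the annotation release, strand setting and any scaling are not given in the sources used here. FPKM holds no counts, so depth is unknown and no counting interval was given.

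Gene symbols came with GENCODE mouse release M21 (52485 of 52632 IDs matched), which also gave GRCm38 coordinates. Of the 55 members, 20 share exon positions with another annotated gene, 4 of them on the same strand (Ndufb2, Ndufb8, Ndufb9 and Atp5o), so their reads cannot always be told apart. The 19288 genes averaging 1 FPKM or more were tested with limma 3.58.1 in R 4.3.3 (lmFit, eBayes with trend) on log2(FPKM + 1), which understates changes of low genes, fitting the 12 libraries together as 4 group means, with Benjamini-Hochberg adjustment over all genes tested within each of 7 comparisons. The threshold was 0.05. "Rescaled" values were divided by the median ratio of each library to the geometric mean over 16018 genes above 0 in all libraries. The code of the fit was run on simulated data with the same noise for every gene and no differences in scale between libraries. That run therefore does not bear on the differences in library scale found here. No 2 libraries were identical (largest Spearman correlation 0.882).

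Members and lists were chosen with earlier results of these data known. Named in full were the highest and lowest member of each complex, the members of each complex with the smallest adjusted p in each comparison (up to 3 that passed), and Cycs, Sdha, Sdhb, Cox4i1, Atp5b and Ndufv1. Further genes in each list were named by smallest adjusted p, and the remainder, such as Ndufs1 and the members without overlap, after their values were seen. Alternatives were quantile normalization, a common sum, pseudocounts of 0.1 and 5, no filter, a mean of at least 5 FPKM, the replicate number as a block, leaving out each library and, chosen after seeing the data, leaving out KO control 1, WT IRI 3 and WT control 3 together.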

Additional observations from a re-analysis of the deposited data

How the results depend on the processing

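The direction of the genotype difference held more widely than its calls: all 55 members were higher in KO, averaged over condition, under every alternative on the deposited scale, 52 after rescaling, 45 after quantile normalization and 41 with every library brought to a common sum. The number that passed was 22 as reported, 22 with a pseudocount of 0.1 and 19 with 5, 31 with a mean of at least 5 FPKM (where 34.2% of all genes passed in either direction), and 0 after rescaling, quantile normalization or a common sum, with no filter, and with KO control 1, WT IRI 3 and WT control 3 left out together (as deposited and rescaled, an alternative chosen after seeing the data). With the pseudocounts 13.4% and 13.2% of all genes were called in either direction. Where 0 members passed, 0.0726% to 0.55% of all genes were called. Without 1 library at a time, deposited or rescaled values gave 0 to 43 members averaged over condition, 0 to 9 within controls and 0 to 3 after IRI, the highest count each time without KO control 2, where 30.4%, 9.38% and 2.37% of all genes were called. For IRI averaged over genotype, where Ndufa13 and Ndufa9 fell, the members called were the same 2 after rescaling and with a pseudocount of 0.1, these and 2 others by quantile normalization (4), these and Cox6a1 with a mean of at least 5 FPKM (3), Ndufa9 alone with a common sum (1), Ndufa13 alone with a pseudocount of 5 (1) and 0 with no filter. With the 3 libraries left out it was Ndufb3 alone (1; Ndufa13 and Ndufa9 at adjusted p = 0.12 and 0.154), and on rescaled values Ndufa1, Ndufa13 and Ndufb3 (3). Over these alternatives between 2.28% (no filter) and 15% (a mean of at least 5 FPKM) of all genes were called in either direction. Without 1 library the count was 0 to 8, and 1 of those called, Ndufs1 without KO IRI 1 (on both scales), was higher after IRI. Within WT the count was 1 by quantile normalization and 0 to 2 without 1 library, and within KO 0 to 2, where the median of the members ranged from -0.41 to 0.03 (-0.409 without KO control 2, 0.0255 on rescaled values without KO IRI 1). The median interaction was -0.23 with a common sum and ranged from -0.0474 to 0.32 without 1 library. The cause of these changes was not tested.

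Some members changed sign, none of which passed as reported. For Cycs, KO minus WT was -0.01 averaged over condition and -0.112 after IRI when rescaled, -0.047 and -0.148 by quantile normalization, and -0.151 and -0.472 with a common sum, and without 1 library it lay between -0.063 and 0.38 and between -0.212 and 0.25. Its injury difference in WT lay between -0.245 and 0.007 without 1 library. For Sdhd, the injury difference in WT was 0.151 without the 3 libraries (0.101 rescaled) and between -0.404 and 0.123 without 1, and for Sdhc the averaged injury difference lay between -0.344 and 0.003.

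Whether the replicate numbers in the labels pair the libraries is not known. Correlations of deviations from the group means lay between -0.037 and 0.202 for 18 pairs with the same number and between -0.147 and 0.119 for 36 with different numbers. The largest, 0.202, was that of WT control 3 with WT IRI 3, and these values do not decide the question. With the replicate number as a block, 14 members passed for genotype averaged over condition, 13 of them among the 22, and 1, Ndufa13, for IRI averaged over genotype, and on rescaled values the block gave 0 and 3. Of all genes, 8.75% and 8.02% were called in either direction with the block, and 0.15% and 12% on rescaled values. The blocked rescaled difference of Cycs was -0.01 averaged over condition and -0.112 after IRI. Unknown depth limits all these values, since no counting error can be attached to an FPKM.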
